A study of Homo sapiens with 8 samples.

Results

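The genes described are the subunits of the proteasome and the proteins that cap it or help to build it. They were taken from the deposited expression matrix as every row whose gene name is PSM, then A, B, C, D or E, then only digits, which gave 43 of 60332 genes. By role these are 7 alpha ring genes (PSMA1 to PSMA7), 3 catalytic beta genes (PSMB5, PSMB6 and PSMB7), 4 other beta genes (PSMB1 to PSMB4), 3 inducible beta genes (PSMB8, PSMB9 and PSMB10), 6 base ATPase genes (PSMC1 to PSMC6), 3 other base genes (PSMD1, PSMD2 and PSMD4), 8 lid genes (PSMD3, PSMD6, PSMD7, PSMD8, PSMD11, PSMD12, PSMD13 and PSMD14), 3 assembly chaperones of the base (PSMD5, PSMD9 and PSMD10), 4 activators (PSME1 to PSME4) and the tissue-restricted PSMA8 and PSMB11. The rule leaves out 42 other rows whose names begin in the same way, among them 30 pseudogene rows, of which 28 were under 1 FPKM in all 8 libraries and the highest value was 3.28 FPKM.

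The proteasome is the barrel-shaped protease that degrades proteins tagged with ubiquitin. Its core particle is a stack of alpha and beta rings that encloses the protein-cutting sites. The regulatory particle that caps the core has a lid, which removes ubiquitin from the substrate, and a base. The ring of ATPases in the base unfolds the substrate and feeds it into the core. Cells exposed to interferon exchange the catalytic subunits for inducible ones that favour the peptides shown by MHC class I, and under normal oxygen the transcription factor HIF1α is among the proteins that the proteasome destroys.

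RNA was sequenced from SK-N-MC, an established Ewing sarcoma (EwS) cell line, in 4 groups of 2 libraries. Control cells, per the growth protocol in the labels, carried an empty lentiviral dCas9-KRAB vector, a dead Cas9 fused to a repressor, and were kept in normoxia or for 16 h at 1% O2 (control normoxia and control hypoxia). In eKD1 and eKD2 cells the same repressor was directed by 1 guide each to the neighbourhood of the GGAA repeat enhancer of LOXHD1, and the libraries of both analysed here come from hypoxia alone, so an effect of the guides on the response to oxygen could not be tested. All 4 groups were lentiviral, puromycin-selected pools used within 5 passages, with 1 pool per guide, so a guide and its pool cannot be told apart. Nothing in the labels ties the 2 libraries of a group to separate infections, and p-values here measure only the spread between such libraries.

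LOXHD1, the gene under the targeted enhancer, was at 156 and 169 FPKM in control normoxia, 93.0 and 91.1 in control hypoxia, 17.3 and 15.0 in eKD1 and 11.7 and 11.8 in eKD2. The knockdown libraries thus had the lowest levels. FPKM are fragments scaled to transcript length and to library size, so levels can be compared between genes. The files hold no read totals and the absolute depth is unknown. The relative depth read from the lowest values was 76.0% and 55.7% in control normoxia and 61.2% to 100% in hypoxia, and total FPKM was 865107 and 877580 in normoxia against 953073 to 1041457 in hypoxia. All 8 markers of the EwS line were expressed, with a summed level of 1211 to 1520 FPKM. Of 8 leukocyte markers, CD3E was listed at 0 throughout and 4 were under 1 FPKM in every library, while PTPRC reached 4.87 to 23.8 FPKM. Their sum was 27.2 to 27.3 FPKM in control normoxia, 10.8 to 14.7 in control hypoxia, 16.1 to 17.9 in eKD1 and 18.4 to 21.2 in eKD2. The 8 fibroblast markers summed to 430 to 435 FPKM in normoxia and to 641 to 681 FPKM in hypoxia, and the part of both lists in the differences described was not tested.

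Nearly all proteasome genes were strongly expressed. In control normoxia the group means of the 14 core particle genes (alpha ring, catalytic and other beta) ran from 132 FPKM for PSMB6 to 472 FPKM for PSMB3, a 3.59-fold range, with a median of 356 FPKM. The 17 regulatory particle genes (base and lid) spread over a 12.9-fold range, from 53.0 FPKM for the lid subunit PSMD6 to 683 FPKM for the base scaffold PSMD2, with a median of 193 FPKM. Subunits of the same particle thus differed widely in transcript level. The activators ran from 35.7 FPKM for PSME4 to 216 FPKM for PSME3, and the chaperones from 25.9 FPKM for PSMD5 to 78.6 FPKM for PSMD9. Together the 43 genes took up 0.999% and 0.983% of all FPKM in control normoxia, 0.741% and 0.747% in control hypoxia, 0.836% and 0.856% in eKD1 and 0.746% and 0.737% in eKD2.

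**Figure D1:**
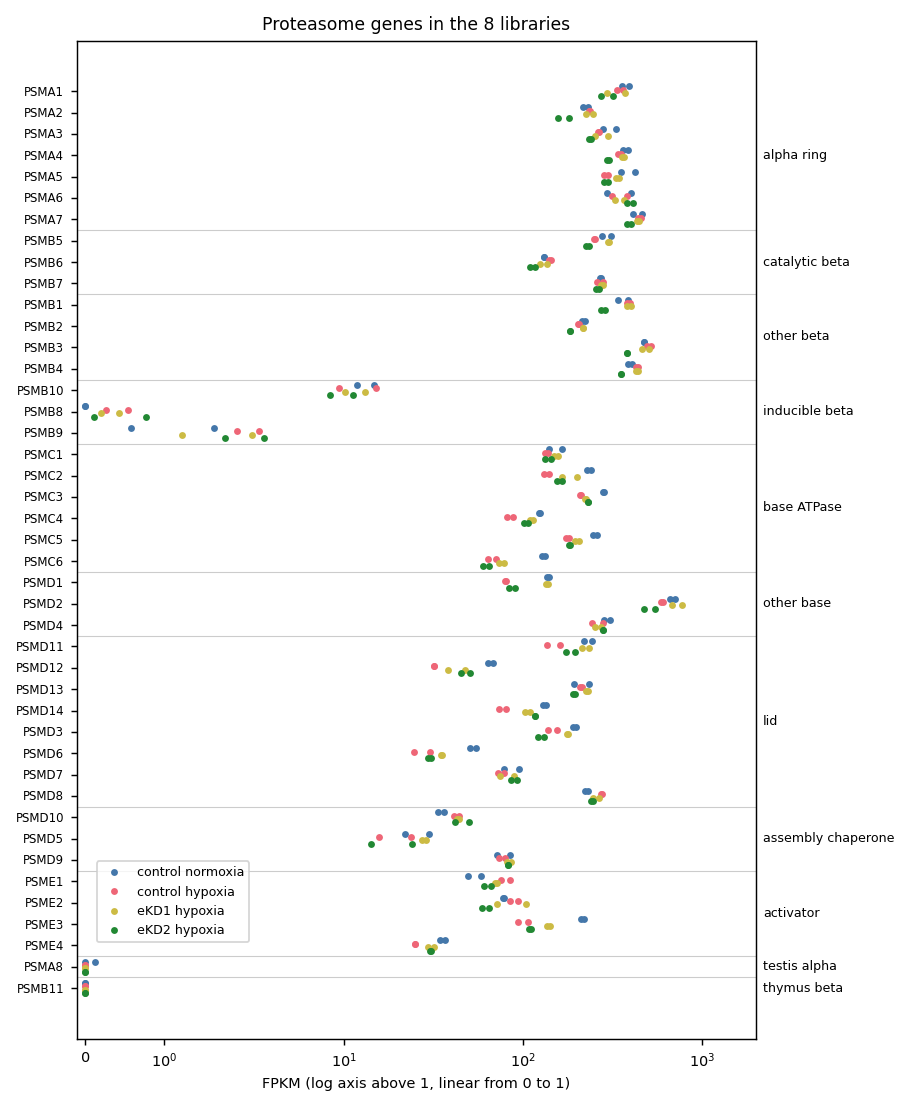
FPKM of the 43 proteasome genes (rows, grouped by role at the right) in each of the 8 libraries, coloured by group, on an axis that is logarithmic above 1 and linear from 0 to 1. The core particle genes lie above 100 FPKM in every library, while the inducible, testis and thymus genes lie at the far left.

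The catalytic subunits were present almost only in their constitutive form. In the values that follow, replicate 1 and then replicate 2 is given for control normoxia, control hypoxia, eKD1 and eKD2 in that order. PSMB5, the chymotrypsin-like subunit, was at 277 and 309, 250.2 and 251, 298 and 303, and 225 and 233 FPKM. PSMB8, which takes its place in the immunoproteasome, had a value of 0 in the normoxia libraries, then 0.266 and 0.538, 0.43 and 0.212, and 0.775 and 0.115 FPKM, at most 0.345% of PSMB5. The 3 hypoxia groups overlapped.

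PSMB6, the caspase-like subunit, was at 131 and 132, 139.9 and 143, 137 and 125, and 110.2 and 117 FPKM. PSMB9, its inducible counterpart, was at 0.587 and 1.89, 3.38 and 2.54, 1.26 and 3.09, and 2.19 and 3.61 FPKM, or 0.448% to 3.08% of PSMB6. Both control hypoxia libraries lay above both normoxia libraries for PSMB9, but its duplicates were far apart in normoxia and in eKD1, and it was not called in any comparison.

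PSMB7, the trypsin-like subunit, was at 273 and 269, 281 and 259, 279 and 274, and 264 and 257 FPKM, so that the 8 libraries lay within 257 to 281 FPKM. PSMB10 takes its place in the immunoproteasome and had the highest level of the inducible subunits, at 11.8 and 14.7, 9.37 and 15.1, 10.2 and 13.2, and 8.45 and 11.2 FPKM, which is 3.20% to 5.82% of PSMB7. The groups overlapped in each of the 4 comparisons made. PSMB11, the beta subunit of the thymic cortex, was listed at 0 in all 8 libraries, and PSMA8, an alpha subunit of the testis, was listed at 0 in 7 libraries and at 0.136 FPKM in the other one. PSMB8, PSMB11 and PSMA8 were below the filter of 1 FPKM in at least 2 libraries, and the other 40 genes were tested. PSMB8 and PSMB9 lie close together on chromosome 6 and share a locus in the authors' assembly, so reads may have been divided between them. As partners of the inducible subunits, 8 interferon and class I genes were also read, of which 7 were tested. In hypoxia 1 of the 7 rose and 0 fell, where 16.2% of all genes tested rose and 16.0% fell. It was B2M, the light chain of MHC class I, with a rise of 0.37 on the log2 scale (limma, adjusted p = 0.0084). The call was lost with equal FPKM totals at 0.13 (adjusted p = 0.0576). In eKD1 and eKD2 against control hypoxia none of the 7 was called by limma, with 1 and 2 at an unadjusted p under 0.05, as were 3337 and 5048 of the 15372 genes tested.

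In control cells, 16 h at 1% O2 was accompanied by lower levels of the regulatory particle transcripts. Of its 17 genes, 11 fell and 1 rose, with a median change of -0.51 on the log2(FPKM + 1) scale. Of the 14 core particle genes none was called (limma), 3 were at an unadjusted p under 0.05, as were 7053 of all 15372 genes tested, and the median change was -0.0022 with a range from -0.40 to 0.13. Over all 40 genes tested, 13 fell and 2 rose, where 16.0% of all 15372 genes tested fell and 16.2% rose, and the median change was -0.18 against 0.013 over all genes tested. The share of regulatory particle genes that fell is thus above that background. The share of core particle genes was below it here. With equal FPKM totals the core share was above the background, at 7 of 14 genes against 25.7% of all genes tested. With 1 library left out of a fit of all groups 13 to 17 members were called, and with 2 libraries against 1 none was. The difference between both particles was not tested as such, and in bulk RNA fewer transcripts per cell and fewer cells that carry them cannot be told apart.

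**Figure D2:**
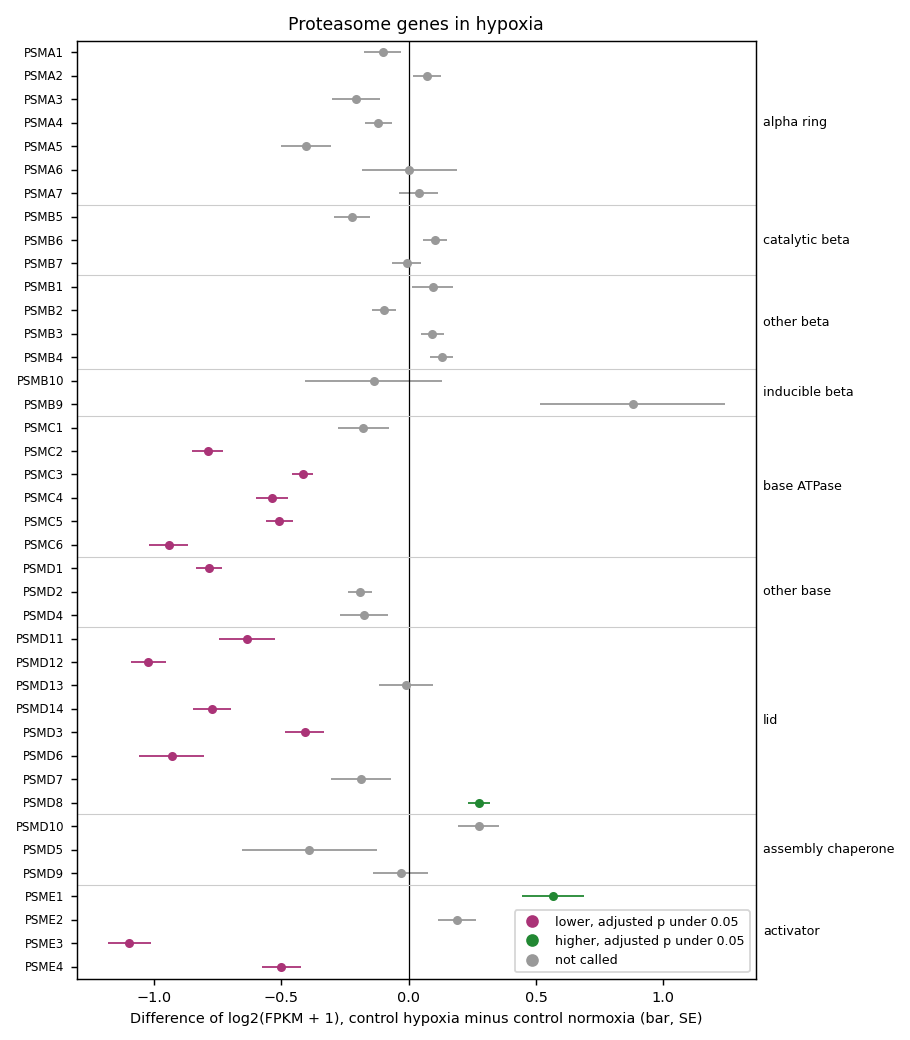
Difference of log2(FPKM + 1) between control hypoxia and control normoxia for the 40 tested genes, by role, with bars of 1 SE from limma (2 libraries per group). The 11 regulatory particle genes that fell lie between -0.41 and -1.02, while the core particle genes lie between -0.40 and 0.13 and none of them was called.

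Among the base ATPases, which form the unfolding ring, 5 of 6 fell. PSMC6 fell most, from 133 and 128 FPKM in normoxia to 64.0 and 71.3 FPKM in hypoxia, a change of -0.94 (SE 0.076, adjusted p = 0.0084). PSMC2 fell by 0.79, PSMC4 by 0.54, PSMC5 by 0.51 and PSMC3 by 0.42 on the log2 scale, with adjusted p-values from 0.0083 to 0.0127. PSMC1 changed least, at 166 and 141 FPKM in normoxia and 138 and 132 FPKM in hypoxia. Its groups did not overlap, but the difference did not pass the test. Every ATPase was thus lower in both hypoxia libraries than in both normoxia libraries, as were 34.5% of all genes tested.

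Of the other base subunits, the scaffold PSMD1 fell from 139.8 and 137 FPKM to 81.0 and 79.0 FPKM, by 0.78 (SE 0.051, adjusted p = 0.0078). PSMD2, the second scaffold of the base and the most abundant transcript of the set, went from 704 and 661 FPKM to 602 and 593 FPKM, a change of -0.19 that just missed the threshold (adjusted p = 0.0524) and passed it when only genes with a mean of at least 5 FPKM, only protein-coding genes or equal FPKM totals were used. PSMD4, a receptor for ubiquitin chains, was at 307 and 285 FPKM in normoxia and 282 and 244 FPKM in hypoxia and was not called.

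The lid was split. PSMD12 had the largest fall of the regulatory particle, from 64.0 and 68.2 FPKM to 32.1 and 31.9 FPKM, a change of -1.02 (SE 0.070, adjusted p = 0.0080). PSMD6, at 51.0 and 55.0 FPKM in normoxia and 24.6 and 30.3 FPKM in hypoxia, fell by 0.93 (SE 0.13, adjusted p = 0.0168). PSMD14, the deubiquitinase of the lid, fell by 0.77 from 129.9 and 135 FPKM to 81.1 and 73.4 FPKM (SE 0.074, adjusted p = 0.0098). PSMD11 fell by 0.63 and PSMD3 by 0.41 on the log2 scale, with adjusted p-values of 0.0251 and 0.0301. Without a filter on low genes PSMD6, PSMD11 and PSMD3 were not called (adjusted p = 0.0603, 0.0893 and 0.0889), and PSMD3 also not without the variance trend (adjusted p = 0.0656). PSMD7, the catalytically inactive partner of PSMD14, and PSMD13 overlapped between the groups, at 94.8 and 78.1 against 73.0 and 78.2 FPKM and at 193 and 232 against 207 and 213 FPKM.

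PSMD8 was the exception in the lid. It rose from 229.8 and 223 FPKM to 273 and 275 FPKM, by 0.28 (SE 0.043, adjusted p = 0.0210), but this rise depended on the scaling, since with equal FPKM totals it was 0.036 (adjusted p = 0.606). It was also lost without either control hypoxia library in a fit of all groups, with adjusted p-values of 0.0507 and 0.0552. With equal FPKM totals the median of all genes moved from 0.013 to -0.19, 23 members fell and none rose, and the calls within the core and regulatory particles became 7 and 14 lower. Of all genes tested, 25.7% fell and 10.2% rose with that scaling. Relative to the median of all genes, the median change was -0.52 for the regulatory and -0.015 for the core particle, and with equal totals -0.56 and -0.052.

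In the alpha ring, which gates the entry to the core, PSMA5 changed most, from 420.1 and 355 FPKM in normoxia to 284 and 299 FPKM in hypoxia (-0.40, SE 0.099), and missed the threshold by little (adjusted p = 0.0505). It was called as lower in the fit of all 8 libraries, with protein-coding genes only and with equal FPKM totals. PSMA2 had the highest change of the ring, at 217 and 232 FPKM in normoxia and 235 and 236 FPKM in hypoxia. It was not called. Among the non-catalytic beta subunits, PSMB4 was at 387 and 405 against 438 and 429 FPKM and PSMB2 at 223 and 214 against 203 and 205 FPKM. PSMB4 was higher and PSMB2 lower in both hypoxia libraries, and neither passed the test. The sign of PSMB4 depends on the scaling, being -0.11 with equal FPKM totals in place of 0.13.

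The 3 chaperones that help to build the base were not called. PSMD10, also known as gankyrin, was at 33.7 and 36.2 FPKM in normoxia and 43.9 and 41.1 FPKM in hypoxia (0.27, adjusted p = 0.0762). PSMD5 was at 22.0 and 29.8 against 23.6 and 15.7 FPKM, with overlapping groups. The antisense gene PSMD5-AS1 was at 19.7 and 23.0 against 11.9 and 12.9 FPKM, and since the library kit does not mark strand, reads of the pair cannot be told apart.

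The activators, which cap the core in place of the regulatory particle, moved in both directions. PSME3, whose product forms a nuclear ring of a single kind of subunit, had the largest fall of all 40 genes, from 212 and 219 FPKM in normoxia to 93.6 and 107 FPKM in hypoxia, by 1.10 (SE 0.085, adjusted p = 0.0082). PSME4, a large nuclear cap protein, fell by 0.50 from 34.7 and 36.7 FPKM to 24.9 and 24.998 FPKM (SE 0.077, adjusted p = 0.0205). PSME1, which forms a ring with PSME2 and is inducible by interferon, rose by 0.57 from 49.4 and 58.8 FPKM to 85.3 and 75.7 FPKM (SE 0.12, adjusted p = 0.0386). PSME2 was at 77.6 and 78.3 against 93.8 and 84.5 FPKM, higher in both hypoxia libraries but not called. The rise of PSME1 did not pass the test with equal FPKM totals (0.33, adjusted p = 0.0907), without a filter on low genes, or without replicate 1 of control hypoxia in the fit of all groups (adjusted p = 0.0564).

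Ratios of members within a library are free of the scaling between libraries. The median regulatory particle gene was at 0.545 and 0.575 of the median core gene in control normoxia, 0.462 and 0.416 in control hypoxia, 0.559 and 0.505 in eKD1 and 0.493 and 0.490 in eKD2. Both control hypoxia libraries had the lowest ratios of the 8. The ratio of PSME3 to PSME1 was 4.29 and 3.73 in control normoxia, 1.10 and 1.42 in control hypoxia, 2.04 and 1.90 in eKD1 and 1.66 and 1.79 in eKD2, with no overlap between any of the groups.

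**Figure D3:**
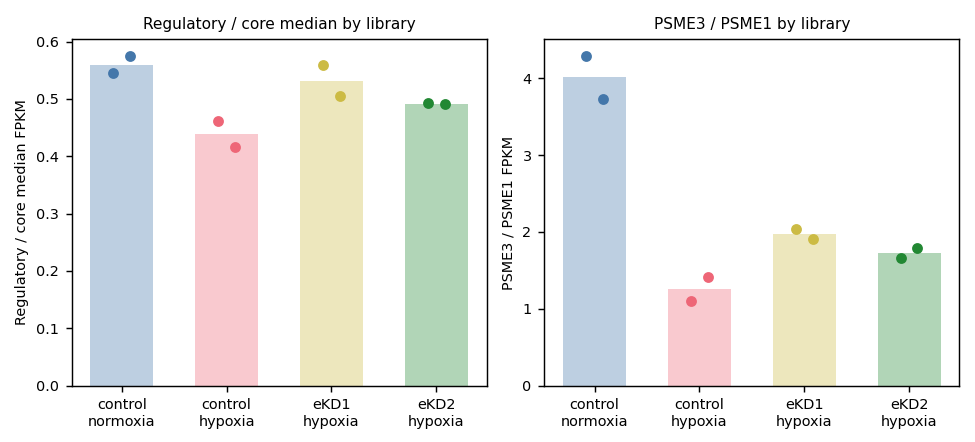
Ratio of the median FPKM of the 17 regulatory particle genes to that of the 14 core particle genes (left) and ratio of PSME3 to PSME1 FPKM (right) in each library (points), with group means as bars. Both ratios are lowest in the control hypoxia libraries and highest on average in control normoxia.

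**Figure D4:**
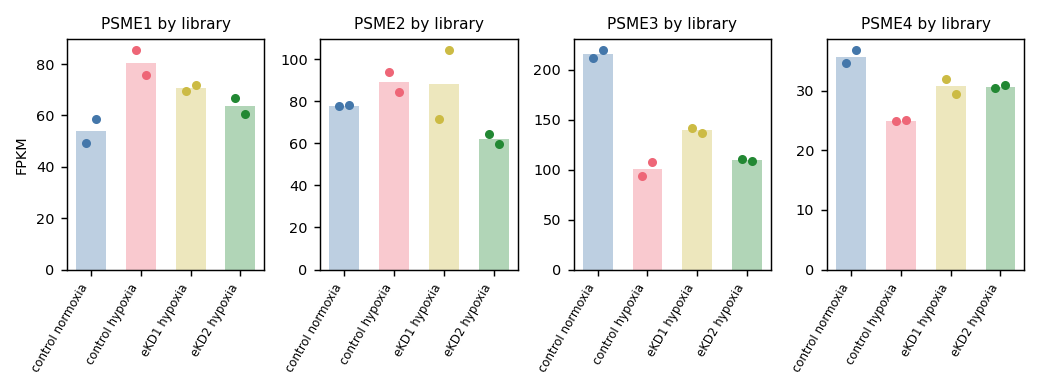
FPKM of the 4 activator genes in each library (points) with group means as bars, each panel on its own axis from 0. PSME3 and PSME4 are highest in both control normoxia libraries, where PSME1 is lowest.

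Several measured properties moved with these results, and their part in them was not tested. The longest annotated coding transcript had a median of 1003 bases in the core and 2147 bases in the regulatory particle genes, with a GC content of 47.0% and 48.6%. Across the 12177 protein-coding genes tested, which share the same libraries and are not independent replicates, Spearman's rho of the hypoxia change was -0.17 with transcript length and 0.212 with GC content. Across the regulatory particle genes it was -0.194 and 0.696 (n = 17), and across the core genes -0.684 and 0.534 (n = 14). Control normoxia libraries also had the lower relative depth, at 55.7% and 76.0% against 96.1% and 100% in control hypoxia.

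To place the members that moved together beside their start sites, promoters of 300 bases, from 250 before to 50 after each start, were searched on both strands. RefSeq held such promoters for 38 of the 43 genes, 10 of the core and 16 of the regulatory particle. A gene was counted if any of its promoters held a motif, with 45 promoters for the 38 genes. The share over all promoters is of single promoters, so both are not strictly comparable. The ETS motif CCGGAAG, the preferred site of the factor family that includes FLI1, lay in 9 of the 16 regulatory and 1 of the 10 core particle genes, where 10.3% of all 35116 promoters held it. Of the 11 regulatory particle genes that fell, 5 had it (PSMC2, PSMC6, PSMD6, PSMD12 and PSMD14), as had PSMC1, PSMD7 and PSMD13, which were not called, and PSMD8, which rose. The part of the motif in the falls was not tested. These windows of 42 bases show a match that begins before the start in 5 genes that fell, with the motif or its complement in capitals. They are RefSeq sequences of the GRCh38.p14 table that each matched 1 place on the named chromosome of GRCh37, the build of the files, and are read along the strand of the gene. For PSMC2 the RefSeq start lies inside the gene as annotated in GRCh37, and its window begins 19025 bases past the annotated gene start. The window of PSMD6 also lies inside its annotated gene.
PSMC2 (GRCh37 chr7:102988042-102988083, plus strand): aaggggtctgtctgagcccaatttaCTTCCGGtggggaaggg
PSMC6 (GRCh37 chr14:53173786-53173827, plus strand): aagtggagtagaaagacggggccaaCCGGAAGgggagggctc
PSMD12 (GRCh37 chr17:65362685-65362726, minus strand): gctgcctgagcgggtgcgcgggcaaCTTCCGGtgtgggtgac
PSMD14 (GRCh37 chr2:162164907-162164948, plus strand): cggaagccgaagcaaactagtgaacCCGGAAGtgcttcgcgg
PSMD6 (GRCh37 chr3:64009191-64009232, minus strand): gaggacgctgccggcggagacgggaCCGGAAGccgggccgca

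For comparison, the same motif is shown in the 3 other lid genes that hold it, of which PSMD8 rose and PSMD7 and PSMD13 were not called in hypoxia.
PSMD8 (GRCh37 chr19:38865169-38865210, plus strand): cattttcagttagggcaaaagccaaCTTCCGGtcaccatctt
PSMD7 (GRCh37 chr16:74330685-74330726, plus strand): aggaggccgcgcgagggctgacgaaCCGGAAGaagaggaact
PSMD13 (GRCh37 chr11:236939-236980, plus strand): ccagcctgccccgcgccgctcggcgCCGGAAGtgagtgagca
The match began 17 bases before the start in PSMD8, 2 in PSMD7 and 12 in PSMD13, against 23 in PSMC2, 107 in PSMC6, 8 in PSMD12, 4 in PSMD14 and 37 in PSMD6.

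Other motifs were counted in the same way. TGACNNNGC, the core of the antioxidant response element, which factors of the NFE2 family bind, was in 13 of the 38 genes with a promoter, 5 of the 16 regulatory and 2 of the 10 core particle genes, where 13.3% of all promoters held it. All 5 regulatory particle genes with it fell, where 11 of the 16 with a promoter did. ACGTG, a hypoxia response element core, was in 9 of the 38 genes and in none of the 16 regulatory particle promoters (21.4% of all promoters), while GCGTG, the other core, was in 14 genes (36.5%), of which the 5 regulatory particle genes also all fell. CCAAT was in 19 genes (34.6%), GAAANNGAA, an interferon response core, in 7 (8.11%) and TTCNNNGAA, a STAT site, in 8 (7.66%). CACGTG, an E-box that also contains ACGTG on both strands, was in 3 genes (7.26%), among them PSME3, the gene with the largest fall, in whose window it begins 42 bases before a RefSeq start that lies inside the gene as annotated in GRCh37, the window itself beginning 8945 bases past the annotated gene start.
PSME3 (GRCh37 chr17:40985347-40985387, plus strand): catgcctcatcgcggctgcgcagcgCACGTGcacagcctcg
A match is only a stretch of letters and was not tested for binding.

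The knockdown comparisons ask how LOXHD1 enhancer silencing changed the members within hypoxia. They share the 2 control hypoxia libraries with each other and with the comparison above, so a value that is extreme in those libraries enters all 3. In eKD1, none of the 40 genes was called by limma, where 0.0130% of all genes tested were higher and 0.0520% lower, and 14 were at an unadjusted p under 0.05, as were 3337 of the 15372 genes tested. The regulatory particle genes had a median change of 0.28, with 16 of 17 above 0, and the core particle genes a median of 0.0080, against 0.0024 over all genes tested. In a fit of all 8 libraries 2.89% of all genes tested were higher and 2.06% lower. Among the 40, 5 genes were higher there, namely PSMD1, PSMD14, PSMC4, PSME3 and PSMD11, with adjusted p-values from 0.0077 to 0.0371. Of these calls 1 was left in that fit without replicate 2 of eKD1 and none without any other library of the comparison.

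PSMD1 had the largest of these changes, 0.76 (SE 0.051, adjusted p = 0.102). The eKD1 libraries held 138 and 134 FPKM of this transcript, those of control hypoxia 81.0 and 79.0, those of eKD2 83.9 and 90.3 and those of control normoxia 139.8 and 137. The eKD1 libraries thus lay at the level of control normoxia and the eKD2 libraries near that of control hypoxia. PSMD1 was called in eKD1 without a filter on low genes (adjusted p = 0.0394) and with protein-coding genes only (adjusted p = 0.0422).

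In eKD2, 2 genes rose and 4 fell among the 40, where 5.80% of all genes tested rose and 3.81% fell. The share that rose was thus not above this background, while the share that fell was. Both that rose belong to the lid. PSMD14 was at 117 and 116 FPKM against 81.1 and 73.4 FPKM, a change of 0.59 (SE 0.070, adjusted p = 0.0342), and PSMD12 at 50.5 and 45.0 FPKM against 32.1 and 31.9 FPKM, a change of 0.56 (SE 0.085, adjusted p = 0.0435). In eKD1 the same genes were at 102 and 109 FPKM and at 47.8 and 38.0 FPKM, also above both control hypoxia libraries and not called.

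Of the 4 genes that fell in eKD2, 3 are non-catalytic beta subunits of the core. PSMB1 was at 286 and 272 FPKM against 396 and 380.2 FPKM, a fall of 0.47 (SE 0.049, adjusted p = 0.0305). PSMB3 was at 382 and 379 FPKM against 517 and 492 FPKM, a fall of 0.40 (SE 0.043, adjusted p = 0.0308). PSMB4 was at 351 and 352 FPKM against 438 and 429 FPKM, a fall of 0.30 (SE 0.036, adjusted p = 0.0345). In eKD1 their values were 383 and 402 FPKM, 462 and 504 FPKM, and 441 and 425 FPKM, each overlapping with the control hypoxia libraries. The activator PSME2 was at 64.5 and 59.5 FPKM against 93.8 and 84.5 FPKM, a fall of 0.52 (SE 0.085, adjusted p = 0.0488), and its eKD1 libraries were far apart at 71.8 and 104 FPKM.

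**Figure D5:**
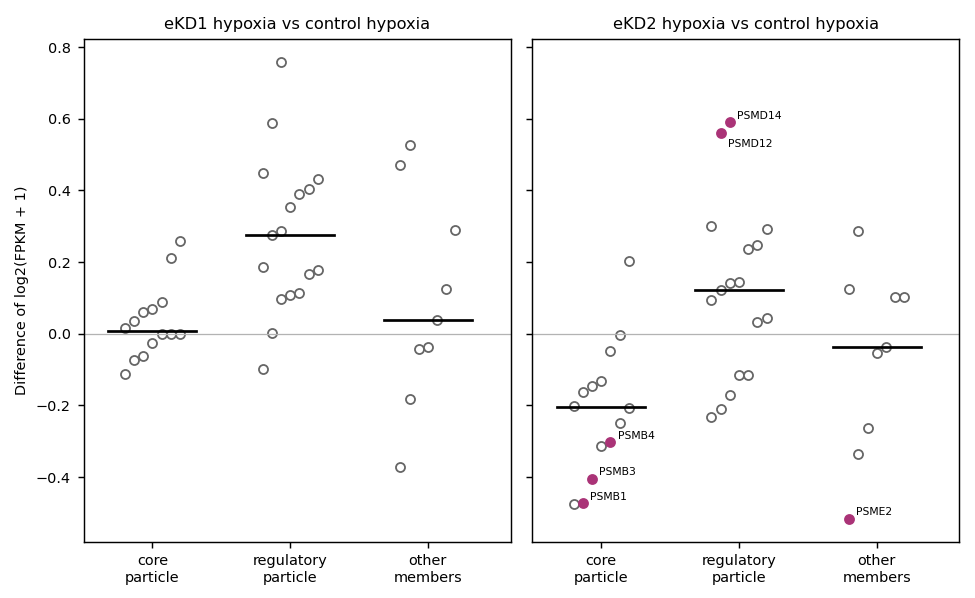
Difference of log2(FPKM + 1) from control hypoxia for each tested gene in eKD1 (left) and eKD2 (right), by particle, with the median of each set as a line. Filled and named points passed an adjusted p under 0.05, and the medians of the core particle were 0.0080 in eKD1 and -0.20 in eKD2, those of the regulatory particle 0.28 and 0.12.

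Across the particles in eKD2, 13 of the 14 core genes were below 0, with a median of -0.20, and 12 of the 17 regulatory genes were above 0, with a median of 0.12, against 0.052 over all genes tested. PSMA6 was the core gene above 0, at 383 and 414 FPKM against 314 and 380 FPKM. The calls were sensitive to the scaling, being 2 higher and 8 lower after median-of-ratios rescaling and 5 higher and 3 lower with equal FPKM totals. None was left without the variance trend, where 0.182% of all genes tested were called. In a fit of all groups 9 were called, 1 and 2 without replicate 1 and 2 of control hypoxia and 4 and 3 without replicate 1 and 2 of eKD2. With all 8 libraries that fit called 16.9% of all genes tested. Relative to the median of all genes the core median was -0.26, and with equal totals -0.24.

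When eKD2 was set directly against eKD1, none of the 40 genes was called by limma, where 0.286% of all genes tested were higher and 0.117% lower in eKD2, and 16 were at an unadjusted p under 0.05, each of them lower in eKD2, as were 3623 of all 15372 genes tested in either direction. The median change was -0.23 for the core and -0.15 for the regulatory particle, against 0.048 over all genes tested. PSMD1 had the largest difference, -0.64 (SE 0.064, adjusted p = 0.0705). With protein-coding genes only 4 members were lower in eKD2 (PSMB1, PSMB5, PSMD1 and PSMD3), as were 1.76% of all genes in that setting. In the fit of all 8 libraries 11 members were lower in eKD2, among them 7 core particle genes, as were 3.79% of all genes tested. That fit called 3 and 1 members without replicate 1 and 2 of eKD1, and 2 and 1 without replicate 1 and 2 of eKD2.

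Among 13 proteins that assemble or accompany the proteasome but lie outside the naming rule, 5 fell and 1 rose in hypoxia. Of all genes tested, 16.0% fell and 16.2% rose. UCHL5 and USP14, deubiquitinases that bind the regulatory particle, fell by 0.72 and 0.69 on the log2 scale (adjusted p = 0.0217 and 0.0220), and PSMG1, a chaperone of the alpha ring, by 0.53 (adjusted p = 0.0476). Without a filter these 3 were not called (adjusted p = 0.0730, 0.0752 and 0.138), and PSMG1 also not with a pseudocount of 0.1 (adjusted p = 0.0511) or without the variance trend (adjusted p = 0.0727). The other genes called are named after their values were seen. KIAA0368, also called ECPAS, fell by 0.50 and the ubiquitin receptor ADRM1 by 0.47 on the log2 scale (adjusted p = 0.0143 and 0.0169), the former not called in the fit of all 8 libraries (adjusted p = 0.0507). SEM1, a small subunit of the lid, went from 446 and 406 FPKM to 545 and 547 FPKM, a rise of 0.36 (adjusted p = 0.0240) that was 0.12 with equal FPKM totals (adjusted p = 0.247). In eKD2 SEM1 was at 341 and 340.1 FPKM, a fall of 0.68 against control hypoxia (adjusted p = 0.0251), and ADRM1 rose by 0.45 (adjusted p = 0.0421). These were the 1 fall and 1 rise among the 13, where 3.81% of all genes tested fell and 5.80% rose. None of the 13 was called in eKD1 by limma, 4 of them at an unadjusted p under 0.05, as were 3337 of the 15372 genes tested.

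The 5 regulators of proteasome genes did not move as one. In hypoxia 2 of them rose and 2 fell, where 16.2% of all genes tested rose and 16.0% fell. In hypoxia DDI2, a protease that activates NFE2L1, fell from 16.1 and 12.1 FPKM to 6.58 and 7.62 FPKM, by 0.89 (adjusted p = 0.0377), a call lost without a filter (adjusted p = 0.108). NGLY1, the enzyme that removes sugars from NFE2L1, rose by 0.73 (adjusted p = 0.0270), and NFE2L1, the factor that drives proteasome genes when proteolysis is impaired, by 0.39 (adjusted p = 0.0436), both lost with equal FPKM totals (0.50 and 0.14, adjusted p = 0.0564 and 0.305). NFE2L2, the related factor of the oxidative stress response, also named after its value was seen, fell by 0.28 (adjusted p = 0.0476) and was not called in the fit of all 8 libraries (adjusted p = 0.0930). In eKD2 NFE2L2 was at 81.0 and 91.3 FPKM against 44.5 and 45.6 FPKM, a rise of 0.92 (adjusted p = 0.0285), with 51.3 and 42.4 FPKM in eKD1. VCP, the ATPase that extracts ubiquitinated proteins and hands them to the proteasome, was at 162 and 178 FPKM in eKD2, a fall of 0.54 against 243 and 252 FPKM in control hypoxia (adjusted p = 0.0343). Of the 5 regulators, 1 rose and 1 fell in eKD2, where 5.80% of all genes tested rose and 3.81% fell. Without the variance trend SEM1, ADRM1, NFE2L2 and VCP were not called in eKD2, with adjusted p-values from 0.0557 to 0.0809. That model called 0.182% of all genes tested.

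RPS27A, which encodes ubiquitin fused to a ribosomal protein, rose in hypoxia by 0.59 (adjusted p = 0.0434), a call lost with equal FPKM totals (0.35, adjusted p = 0.0977). In eKD2 it fell by 0.63 against control hypoxia (adjusted p = 0.0372), a call lost without the variance trend (adjusted p = 0.0738). RPS27A has many near-identical pseudogene copies, which makes its values uncertain. UBB, another ubiquitin gene, was not called in any comparison. Of 5 genes of the VHL ligase, which marks HIF1α for the proteasome, 1 rose and 1 fell in hypoxia. Of all genes tested, 16.2% rose and 16.0% fell there. ELOB rose by 0.75 (limma, adjusted p = 0.0065). ELOC fell by 0.32 (adjusted p = 0.0450), a call lost without a filter (adjusted p = 0.128). None of the 5 was called in eKD1 or eKD2 against control hypoxia by limma. In each, 2 of them were at an unadjusted p under 0.05, as were 3337 and 5048 of the 15372 genes tested.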

How the data were processed

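Total RNA of 8 libraries of SK-N-MC cells (4 groups of 2, grouped by GEO's labels) was extracted, poly-A selected and sequenced as single ends. The authors aligned the reads with STAR to GRCh37 (hg19) and deposited FPKM per gene made with cufflinks and cuffnorm. The TruSeq kit used does not mark strand, and the scaling between libraries is not given in the sources used here. The submitters' processing notes also name FastQC and DESeq2. Count data were not analysed here, so absolute depth is unknown, and relative depth was read from the smallest steps of low FPKM values. The 15372 of 60332 genes that reached 1 FPKM in 2 or more libraries were tested on log2(FPKM + 1) with limma 3.58.1 in R 4.3.3, in a separate fit of 2 against 2 libraries for each of 4 comparisons, with empirical Bayes moderation and a mean-variance trend, two-sided. P-values were adjusted by Benjamini-Hochberg over all genes tested and called at an adjusted p under 0.05. A log2 change on this scale understates the change of low genes, and an SE is that of limma. The background is the share of all genes tested that was called. The script was tested on simulated data.

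Members are all genes whose name fits the stated pattern. Values in every library are given for the catalytic and inducible pairs, the tissue-restricted and activator genes, the members with the highest and lowest hypoxia change in a role, and up to 4 called members in each direction. Of the related lists, up to 3 called genes per comparison were named by size, and others only where said. Some genes of these lists are not reported here. The members, lists and tests were chosen with earlier results of these data known, and no list is independent evidence. The alternatives tried were each library left out, protein-coding genes only, a shared fit of the 8 libraries, a model without the variance trend, the replicate number as a block, rescaling to equal FPKM totals or by median-of-ratios, a pseudocount of 0.1, and either no filter or one on a mean of 5 FPKM. Leaving out a library within the fit of all groups was added after seeing the data. Promoters are from RefSeq (GRCh38.p14), with windows placed on GRCh37 by exact match, and transcript lengths from the GRCh37 annotation. PSMB7, PSMD4, PSMB6, PSMA7 and PSMB1 had no promoter entry.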

Additional observations from a re-analysis of the deposited data

Results flagged for a closer look

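For 6 members and VCP, both eKD1 libraries lay above and both eKD2 libraries below the 2 control hypoxia libraries, which both comparisons share. Of all 15372 genes tested, 27.6% lay above control hypoxia without overlap in eKD1 and 26.4% below it in eKD2. The share of all genes that did both was not counted, so whether 6 of the 40 members is unusual is not known. The direct difference, eKD2 minus eKD1 on the log2 scale (limma, adjusted over all genes), was -0.28 for PSMA4 (SE 0.044, adjusted p = 0.0915), -0.25 for PSMB2 (SE 0.043, adjusted p = 0.0985) and -0.39 for PSMB5 (SE 0.046, adjusted p = 0.0779) in the core particle. It was -0.23 for PSMD13 (SE 0.047, adjusted p = 0.114), -0.51 for PSMD2 (SE 0.11, adjusted p = 0.123) and -0.49 for PSMD3 (SE 0.061, adjusted p = 0.0784) in the regulatory particle. None of these 6 passed the test of the difference, and each had an unadjusted p under 0.05.

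VCP, the ATPase that hands ubiquitinated proteins to the proteasome, was at 338 and 341 FPKM in eKD1, 243 and 252 FPKM in control hypoxia and 162 and 178 FPKM in eKD2. Its difference of -0.99 between the guides (SE 0.064) passed the test (adjusted p = 0.0461), but not without a filter (adjusted p = 0.0644), with equal FPKM totals (adjusted p = 0.0549) or without the variance trend (adjusted p = 0.106), and over all alternatives its adjusted p ran from 0.0013 to 0.307. The guide and its pool of cells cannot be told apart in these differences. Groups of 2 libraries were not examined for single outlying libraries.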

How the results depend on the processing

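In hypoxia, 15 members were called and the median change was -0.18. With equal FPKM totals these were 23 and -0.42, without a filter the median was -0.16, and PSMB4 turned from 0.13 to -0.11 with equal totals. Without 1 library the count ran from 0 to 17 and the median from -0.17 to -0.14. In eKD1 (0 called, median 0.10) the count was 1 without a filter, 5 in the fit of all 8 libraries, 1 with protein-coding genes only and 0 to 1 without 1 library, and the median was 0.17 with equal totals. In eKD2 (6 called, median -0.05) the count was 1 without a filter, 10 with a mean of at least 5 FPKM, 10 with median-of-ratios rescaling, 0 without the variance trend and 0 to 4 without 1 library, and the median was 0.043 with equal totals. Between the guides (0 called) it was 11 in the fit of all 8 libraries, 4 with protein-coding genes only and 0 to 3 without 1 library. The fit of all 8 libraries called 4.95% of all genes tested in eKD1, 16.9% in eKD2 and 9.05% between the guides. With the replicate block the counts of members were 11 in hypoxia and 0 in eKD2, eKD1 and between the guides. That model called 16.7% of all genes tested in hypoxia and 0 genes in each of the other comparisons. Without the variance trend 0.182% of all genes tested were called in eKD2. The labels give libraries of the same number only that number in common. Correlations of their deviations ran from -0.0574 to 0.126, and a shared batch was not tested. Fits of 2 against 1 library have 1 residual degree of freedom and called no member in any comparison, and the fit of all groups assumes that a lone library varies like the others. Of the values of single genes under the alternatives, 1217 kept their side of the threshold and direction, 303 lost and 60 gained a call, and 1 turned. Apart from the smaller number of samples or genes in some alternatives, the cause was not tested. Absolute depth is unknown, so no counting error could be given.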
